A study of Mus musculus with 3 samples.

Results

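The cyclin-dependent kinase (CDK) inhibitors and D-type cyclins of the mouse were described here from 10 genes, taken from a list of symbols and all present among the 23284 symbols listed. They comprise the 3 Cip/Kip inhibitors Cdkn1a, Cdkn1b and Cdkn1c, the 4 Ink4 inhibitors Cdkn2a, Cdkn2b, Cdkn2c and Cdkn2d, and the 3 D-type cyclins Ccnd1, Ccnd2 and Ccnd3. RNA-seq values were available for 3 libraries of cells sorted by GFP from embryonic digits, 1 library per population, all on a C57/bl6 background. Sox9+ cells came from Sox9-eGFP/+ embryos at E13.5 (E, embryonic day), with no limb named in the labels. Lgr5+ cells, labelled as interzone (the cell layer where a joint will form), and Lgr5- cells, labelled as non-interzone, came from forelimb digits of Lgr5-eGFPCreERT2/+ embryos at E14.5. GFP in these lines reports the activity of the Sox9 or Lgr5 locus and not the position of a cell, so Lgr5- means GFP-negative digit cells of any kind. Neither the number of embryos nor the number of cells is given in the sources used here.

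D-type cyclins bind Cdk4 and Cdk6, and the complexes phosphorylate the retinoblastoma protein, which frees E2F factors to switch on genes of DNA replication. Ink4 proteins bind Cdk4 and Cdk6 directly, whereas Cip/Kip proteins bind complexes of cyclins with CDKs more widely and are best known as inhibitors of Cdk2. In the growth plate the product of Cdkn1c, p57, is known for its part in the exit of chondrocytes from the cell cycle before hypertrophy, and Ccnd1 is known as a mitogen-responsive gene of proliferating chondrocytes. The products of several of these genes are also controlled by protein breakdown, which RNA does not show.

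Levels are given in FPKM (mapped fragments divided by a transcript's length and the library's total), a scale per length on which genes of 1 library can be set side by side. A fold is the ratio of FPKM + 1, which understates differences of low genes. A gene was measured in a pair of libraries if it reached 1 FPKM in the higher one, and a difference of at least 2-fold counted as called. Each population has 1 library, so there is no replicate error, no test was run, and every difference named for cells of a population is one between single libraries. Depth is unknown because the files hold no read counts.

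The libraries listed 11924 to 12002 genes at 1 FPKM or more. Cartilage and joint markers were present in each: Sox9 stood at 254.7, 332.0 and 147.1 FPKM in the Sox9+, Lgr5+ and Lgr5- samples, and Lgr5 at 3.48, 26.8 and 1.36 FPKM. The Sox9+ library stood apart in heat shock genes, with Hspa1a at 1116 FPKM against 20.2 in Lgr5+ and 16.1 in Lgr5- cells. The Lgr5+ library stood apart in the ribosomal RNA precursor Rn45s, at 1.86% of summed FPKM against 6.43% in Sox9+ and 6.13% in Lgr5- cells. The Lgr5- library stood apart in red blood cell genes, whose 11 listed members summed to 4012 FPKM against 150.0 in Sox9+ and 158 in Lgr5+ cells. Muscle genes (14 listed) summed to 107 FPKM in Lgr5+ cells against 22.2 in Sox9+ and 28.6 in Lgr5- cells, and macrophage genes (12 listed) to 89.2 against 12 and 47.1 FPKM. Epidermal genes (14 listed) summed to 71.3 FPKM in Lgr5+, 70.9 in Sox9+ and 30.1 in Lgr5- cells, and endothelial genes (10 listed) to 17.9, 13.6 and 25.0 FPKM. The erythroid gene Epb4.2 was listed at 0 in Sox9+ and Lgr5+ cells, the macrophage genes Aif1 and Fcgr1 and the muscle gene Myf6 in Sox9+ cells. The part of these other cells in the values below was not tested. In bulk RNA, fewer cells of a type and less RNA per cell cannot be told apart.

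Among the 10 genes, Cdkn1c stood far above the other inhibitors in all 3 libraries. Only Cdkn1a and Cdkn2b were called different, both lower in each E14.5 library than in Sox9+ cells at E13.5. No member was called between the Lgr5+ and Lgr5- libraries, where Cdkn1c and Ccnd1 were higher and Ccnd2 lower in Lgr5+ cells, each by less than 2-fold.

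**Figure D1:**
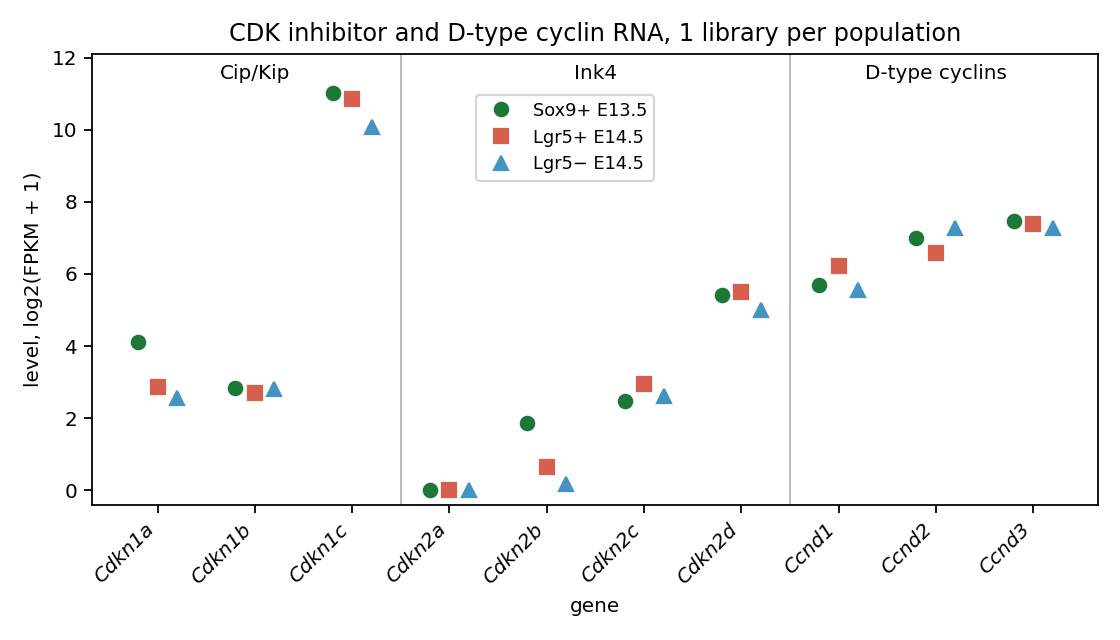
Level of each gene as log2(FPKM + 1) in the Sox9+ E13.5, Lgr5+ E14.5 and Lgr5- E14.5 libraries, 1 point per library and no replicates. Cdkn1c is the highest of the genes shown in each library, Cdkn2a lies at 0 in all 3, and Cdkn1a and Cdkn2b are highest in Sox9+ cells.

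Cdkn1a and Cdkn2b are the 2 members that differed past 2-fold, so the 250 bases before their annotated start sites are shown first. They come from RefSeq on GRCm38.p6, which held windows for 7 of the 10 members and none for Cdkn1c, Ccnd1 and Ccnd2. Cdkn1a has a window for each of 2 start sites, an upstream one at 29090979 and a downstream one at 29093769 on chromosome 17, and values per gene do not show which was used. Capitals mark ACATGT, the core of the half-site bound by p53 and its own reverse complement, and the GC box bound by Sp1, GGGCGG or CCGCCC on the other strand.
Cdkn1a, upstream start, chr17:29090729-29090978, plus strand: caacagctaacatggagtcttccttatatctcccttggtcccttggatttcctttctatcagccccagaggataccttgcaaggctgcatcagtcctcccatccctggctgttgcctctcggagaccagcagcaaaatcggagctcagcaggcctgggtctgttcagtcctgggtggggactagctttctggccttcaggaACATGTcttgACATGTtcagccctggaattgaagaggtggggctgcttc
Cdkn1a, downstream start, chr17:29093519-29093768, plus strand: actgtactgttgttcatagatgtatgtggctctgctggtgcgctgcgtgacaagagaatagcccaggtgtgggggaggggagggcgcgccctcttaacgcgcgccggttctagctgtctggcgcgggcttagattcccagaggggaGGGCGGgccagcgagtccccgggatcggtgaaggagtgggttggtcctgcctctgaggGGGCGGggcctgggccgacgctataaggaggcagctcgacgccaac
Cdkn2b, chr4:89311033-89311282, minus strand: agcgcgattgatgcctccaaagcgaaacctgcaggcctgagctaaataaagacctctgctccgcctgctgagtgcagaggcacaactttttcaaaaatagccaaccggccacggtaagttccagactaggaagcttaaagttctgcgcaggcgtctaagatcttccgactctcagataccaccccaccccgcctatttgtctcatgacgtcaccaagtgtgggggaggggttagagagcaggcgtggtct

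The upstream Cdkn1a window held 2 copies of ACATGT, whose first bases lie 10 bases apart, the first of them 49 bases before the start site. Of 32851 RefSeq windows of the same length, 4.58% held ACATGT and 0.247% held it at least 2 times. The downstream Cdkn1a window held 2 GC boxes, a motif found on either strand in 32.7% of windows. The Cdkn2b window held neither motif. An E-box (CACGTG, in 6.02% of windows) and the E2F-type letters TTTCCCGC (0.895%) and TTTGGCGC (0.417%), searched on both strands, were in none of the 3 windows. The marked motifs do not overlap each other, and a match is a run of letters, not evidence of binding.

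Cdkn1a encodes p21, the Cip/Kip inhibitor best known as a target of p53 (GRCm38 chromosome 17 from 29090976 to 29100727, forward orientation). It stood at 16.4 FPKM in Sox9+ cells, 6.28 FPKM in Lgr5+ cells and 4.89 FPKM in Lgr5- cells. Both E14.5 libraries were thus low and close to each other, 1.24-fold apart. The Lgr5+ library was 2.39-fold and the Lgr5- library 2.96-fold below the Sox9+ library. The gene model AC167363.2 on the other strand overlaps 273 of its exonic bases, and 8.5% of the 50-base stretches of its annotated transcripts also occur in transcripts of other genes.

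Cdkn2b encodes p15, an Ink4 inhibitor known to be induced by TGF-beta (chromosome 4 from 89306299 to 89311039, reverse orientation). It was low throughout, at 2.62 FPKM in Sox9+ cells, 0.55 FPKM in Lgr5+ cells and 0.12 FPKM in Lgr5- cells. Only the Sox9+ value reached 1 FPKM, so the gene counted as measured only in the 2 pairs that include that library. It was 2.34-fold lower in Lgr5+ and 3.23-fold lower in Lgr5- cells. For a gene this low the fold depends on the constant added: with 0.1 in place of 1 FPKM the log2 ratio of the Lgr5- to the Sox9+ library was -3.63 in place of -1.69, and with 5 it was -0.57. With that larger constant the Lgr5+ to Sox9+ log2 ratios of Cdkn2b and Cdkn1a were -0.46 and -0.93, within 2-fold.

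In counts, 2 of the 9 members measured lay 2-fold or more below Sox9+ cells in Lgr5+ cells and none above, where 3.97% of 12473 measured genes were 2-fold lower, 4.33% higher and 8.3% different in either direction. In the Lgr5- library 2 of 9 were 2-fold lower than in Sox9+ cells and none higher, where 4.95% of 12463 measured genes were lower, 3.08% higher and 8.03% different in either direction. The split of all called genes moved with the scaling: rescaled to a constant sum (TPM), 979 were higher and 533 lower in Lgr5+ than in Sox9+ cells, against 540 and 495 as deposited. For Lgr5- against Sox9+ cells the split was 705 higher and 644 lower in TPM and 471 and 503 scaled by the sum without the most abundant genes, against 384 and 617. Both members stayed among the lower genes under each of the 5 scalings. The median log2 ratio of the measured members was -0.12 for Lgr5+ and -0.19 for Lgr5- cells over Sox9+ cells, beside 0.06 and -0.01 for all measured genes. These 2 comparisons share the Sox9+ library, and 2 genes are too few to describe the set of 10.

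**Figure D2:**
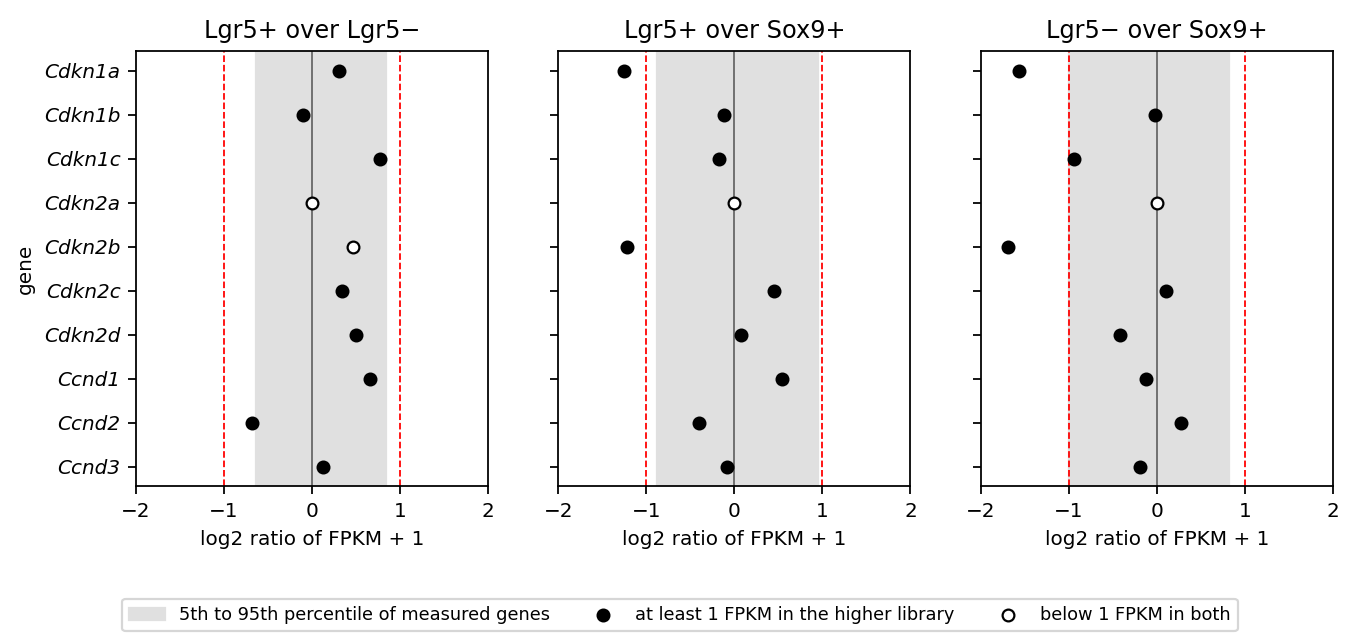
Log2 ratio of FPKM + 1 for each gene in the 3 pairs of libraries, with dashed lines at 2-fold and the grey band from the 5th to the 95th percentile of all measured genes; open points are genes below 1 FPKM in both libraries. Cdkn1a and Cdkn2b lie beyond 2-fold in both comparisons with the Sox9+ library, and Cdkn1c comes close at -0.94 in the last.

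Cdkn1c encodes p57, an imprinted Cip/Kip inhibitor expressed mainly from the maternal allele (chromosome 7 from 143458339 to 143461050, reverse orientation). Its level was 2083 FPKM in Sox9+ cells, 1855 FPKM in Lgr5+ cells and 1089 FPKM in Lgr5- cells. These levels ranked 28th, 26th and 68th of 23284 symbols. Cdkn1c alone made up 96.7% of the summed FPKM of the 7 inhibitors in Sox9+ cells, 96.7% in Lgr5+ cells and 95.9% in Lgr5- cells. Its ratio to the summed D-type cyclins was 5.9 in Sox9+, 5.52 in Lgr5+ and 3.08 in Lgr5- cells. The Lgr5- library was the low one, 1.7-fold below the Lgr5+ and 1.91-fold below the Sox9+ library, short of the 2-fold line in both pairs. The order of the Sox9+ and Lgr5+ libraries is not settled, since their log2 ratio of -0.17 turned to 0.09 under 1 other scaling.

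An antisense RNA gene, Gm44732, overlaps 625 exonic bases of Cdkn1c, and 24.9% of the 50-base stretches of Cdkn1c transcripts occur in it on the other strand. Kits of this type do not mark the strand, so reads there cannot be assigned to 1 of the 2 genes. Of 12 genes listed from the imprinted region of distal chromosome 7, Igf2, which encodes a fetal growth factor, stood at 584.8, 553.9 and 314.8 FPKM in the Sox9+, Lgr5+ and Lgr5- samples. H19, the noncoding RNA beside Igf2, stood at 968.4, 1272 and 563.9 FPKM. Of the 11 listed genes that reached 1 FPKM, 4 (Igf2 and H19 among them) were lowest in Lgr5- cells as Cdkn1c was, 4 were lowest in Lgr5+ and 3 in Sox9+ cells. H19 was the 1 gene of 10 measured that was called between the Lgr5+ and Lgr5- libraries, at 2.25-fold. Kcnq1ot1, the noncoding RNA that silences the Cdkn1c domain on the paternal allele, was near the limit at 1.16, 0.51 and 0.83 FPKM. Phlda2, an imprinted neighbour of Cdkn1c, stood at 112.6 FPKM in Sox9+ cells against 31.6 and 46.0 FPKM in Lgr5+ and Lgr5- cells. Tspan32 was the other of 2 genes among 11 measured that were called in each comparison with the Sox9+ library, at 4.41 FPKM against 0.28 and 1.17 FPKM. The shares of all measured genes called were 8.3% for Lgr5+ and 8.03% for Lgr5- over Sox9+ cells, and 5.54% between the E14.5 libraries. The medians of the list were 0.26 for Lgr5+ over Lgr5-, -0.04 for Lgr5+ over Sox9+ (0.07 in TPM) and -0.24 for Lgr5- over Sox9+, on the log2 scale.

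Cdkn1b encodes p27, the inhibitor typical of resting cells (chromosome 6 from 134920401 to 134925513, forward orientation). It stood at 6.09, 5.52 and 6.01 FPKM in the Sox9+, Lgr5+ and Lgr5- samples. The highest library was 1.09-fold over the lowest, the narrowest range of the members listed above 0. Cdkn1c exceeded Cdkn1b by a factor of 342 in Sox9+, 336 in Lgr5+ and 181 in Lgr5- cells. In the Lgr5- library Cdkn1b was above Cdkn1a, and in the other two it was below.

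Of the remaining Ink4 genes, Cdkn2d was the main one and Cdkn2a was listed at 0 in every library. Cdkn2d, which encodes p19Ink4d (chromosome 9 from 21288410 to 21291407, reverse orientation), stood at 41.9, 44.4 and 31.0 FPKM in the Sox9+, Lgr5+ and Lgr5- samples. It held 85.3%, 86% and 85.7% of the summed FPKM of the family, a share that hardly varied. Cdkn2c, which encodes p18 (chromosome 4 from 109660876 to 109667189, reverse orientation), was lower at 4.6, 6.67 and 5.06 FPKM, with the Lgr5+ library highest by 1.37-fold over the Sox9+ library. Cdkn2a (chromosome 4 from 89274471 to 89294653, reverse orientation) encodes both p16 and the p53 activator Arf from separate first exons, and no fold can be given for it. The Polycomb genes Bmi1 and Ezh2, known as repressors of Cdkn2a, stood at 11.7, 16.3 and 10.2 FPKM and at 41.5, 31.1 and 30.8 FPKM in the same order.

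**Figure D3:**
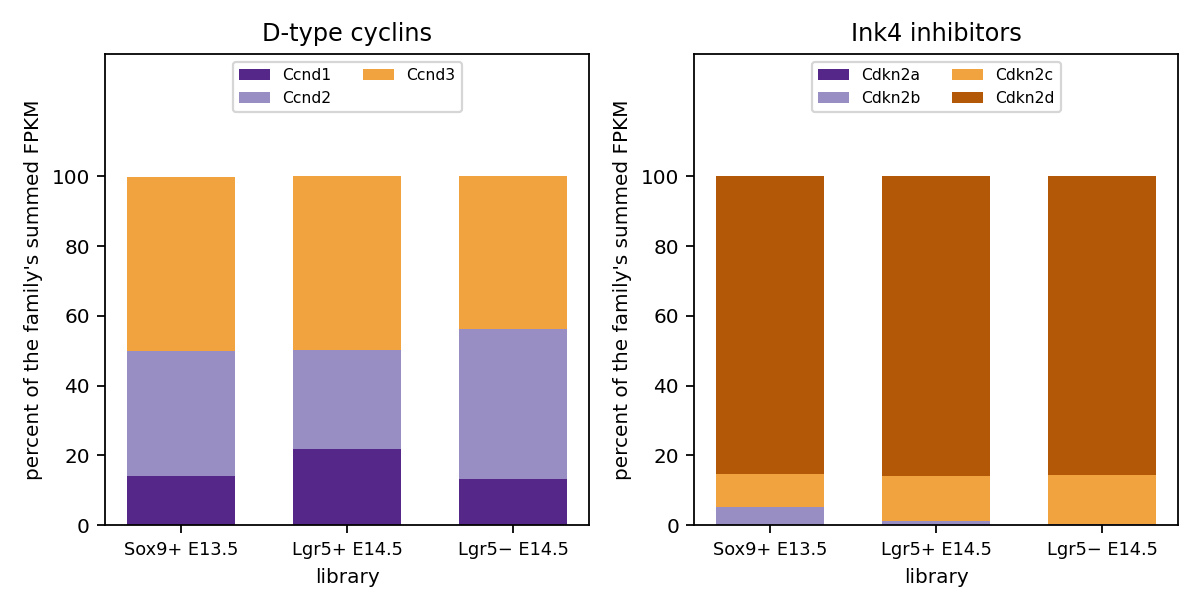
Each D-type cyclin (left) and each Ink4 inhibitor (right) as a percent of the summed FPKM of its family, 1 bar per library. Ccnd1 holds 21.9% and Ccnd2 28.3% of the D-type cyclin sum in Lgr5+ cells, against 13.1% and 43.2% in Lgr5- cells, while Cdkn2d holds 85.3% to 86% of the Ink4 sum in all 3.

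The D-type cyclins had nearly the same summed level in the 3 libraries, at 353 FPKM in Sox9+, 336 in Lgr5+ and 353 in Lgr5- cells, but Ccnd1 and Ccnd2 took different shares of it. Ccnd1 (chromosome 7 from 144929931 to 144939925, reverse orientation) stood at 50.2 FPKM in Sox9+, 73.7 FPKM in Lgr5+ and 46.3 FPKM in Lgr5- cells. The Lgr5+ library was thus the high one, 1.58-fold over the Lgr5- and 1.46-fold over the Sox9+ library. Ccnd2 (chromosome 6 from 127125162 to 127152193, reverse orientation) went the other way, at 126.2, 95.2 and 152.7 FPKM in the same order. Its lowest value was in Lgr5+ cells, 1.6-fold below the Lgr5- and 1.32-fold below the Sox9+ library. The ratio of Ccnd1 to Ccnd2 within a library, which no rescaling by a library factor alters, was 0.774 in Lgr5+ cells, 0.303 in Lgr5- cells and 0.398 in Sox9+ cells. Between the Lgr5+ and Lgr5- libraries the ratio differed 2.55-fold.

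Ccnd3 (chromosome 17 from 47505051 to 47599691, forward orientation) was the most abundant D-type cyclin, at 176.6, 167.3 and 154.2 FPKM in the Sox9+, Lgr5+ and Lgr5- samples. Its levels spanned 1.14-fold, and the sign of the difference of the Lgr5+ library from either of the others changed under other scalings. The order of levels was Ccnd3, Ccnd2, Ccnd1 in each library, and in Lgr5- cells Ccnd3 and Ccnd2 were 1.01-fold apart. Reads of Ccnd1 cannot be told from those of LTO1 where the genes overlap on opposite strands, over 1100 exonic bases of Ccnd1, and LTO1 was listed as Oraov1 at 3.41 to 5.02 FPKM. The gene Bysl, at 17.1 to 19.2 FPKM, overlaps 361 exonic bases of Ccnd3, while Gm43126 and 9330179D12Rik, the latter at 0.54 to 1.52 FPKM, overlap 372 and 368 exonic bases of Ccnd2.

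Between the Lgr5+ and Lgr5- libraries, none of 8 measured members was 2-fold different, where 5.54% of 12419 measured genes were, 3.65% higher and 1.89% lower in Lgr5+ cells. The median log2 ratio of the 8 was 0.32, beside 0.08 for all measured genes. At 1.5-fold, a line passed by 15.4% of measured genes (9.49% higher and 5.95% lower), Cdkn1c and Ccnd1 were higher and Ccnd2 lower in Lgr5+ cells, 3 of 8. The other 5 measured members lay between 1.08-fold and 1.42-fold. The Lgr5+ library also held more muscle, epidermal and macrophage RNA and less red blood cell RNA than the Lgr5- library, by the sums given above. Not every marker followed its sum. Of the measured genes, 4 of 13 epidermal and 1 of 10 macrophage genes were lower in Lgr5+ cells, and 1 of 9 red blood cell genes was higher.

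The kinases that D-type cyclins bind were dominated by Cdk4. Cdk4 stood at 512.6, 521.8 and 524.4 FPKM in the Sox9+, Lgr5+ and Lgr5- samples, with almost no difference. Cdk6 was low, at 5.84 FPKM in Sox9+ cells, 1.89 FPKM in Lgr5+ cells and 3.75 FPKM in Lgr5- cells, and was called lower in Lgr5+ than in Sox9+ cells at 2.37-fold. The ratio of Cdk4 to Cdk6 was 87.8, 276 and 140 in the same order. Rb1, which encodes the retinoblastoma protein, stood at 2.66, 2.7 and 3.06 FPKM. Of the 22 listed CDK, retinoblastoma, E2F, cyclin E and CDK-activating genes, all measured, 3 were 2-fold lower in Lgr5+ than in Sox9+ cells (Cdk6, E2f7 and E2f8). In Lgr5- cells 3 were 2-fold lower than in Sox9+ cells (E2f5, E2f7 and E2f8), and none was called between the E14.5 libraries. Among all measured genes 3.97% and 4.95% were 2-fold lower in the comparisons with Sox9+ cells, and 5.54% were called between the E14.5 libraries. E2f7 and E2f8, repressors of E2F targets, stood at 9.81 and 8.67 FPKM in Sox9+ cells, 3.38 and 3.61 FPKM in Lgr5+ cells and 4.32 and 2.56 FPKM in Lgr5- cells. The log2 medians of this list were -0.04 for Lgr5+ over Sox9+ (0.09 in TPM), -0.25 for Lgr5- over Sox9+ and 0.13 for Lgr5+ over Lgr5-. Of the 3 lower in Lgr5- cells, 1 was still past 2-fold in TPM.

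Genes for the ubiquitin ligases and cofactors that break down these proteins were seldom called, as was the case for all genes. Skp2, the receptor that targets p27, stood at 25.0, 19.9 and 20.9 FPKM. Of 16 listed genes only Cryab was called, in both comparisons of the Lgr5+ library. The shares of all measured genes called were 5.54% for Lgr5+ over Lgr5-, 8.3% for Lgr5+ over Sox9+ and 8.03% for Lgr5- over Sox9+. Cryab, a small heat shock protein gene and partner of the cyclin D1 ligase subunit Fbxo4, stood at 4.79 FPKM in Lgr5+ cells against 1.23 in Sox9+ and 0.83 in Lgr5- cells. Cryab is also expressed in muscle, whose markers were highest in Lgr5+ cells, and their part in this value was not tested. The medians of the 16 log2 ratios were 0.17 for Lgr5+ over Lgr5-, 0.13 for Lgr5+ over Sox9+ and -0.01 for Lgr5- over Sox9+ (0.10 in TPM).

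Most of the 25 listed genes of DNA replication and mitosis lay below their Sox9+ values at E14.5, within 2-fold. Each of the 25 was below its Sox9+ value in both E14.5 libraries, where 5524 of 12473 measured genes were for Lgr5+ and 6295 of 12463 for Lgr5- cells, though in TPM 22 of 25 were for Lgr5+ cells and after quantile normalization 24 of 25 for Lgr5- cells. The log2 medians were -0.51 for Lgr5+ (-0.36 in TPM) and -0.75 for Lgr5- cells (-0.63 in TPM). Past 2-fold were 1 gene in Lgr5+ cells (Cdt1, none in TPM), beside 3.97% of all genes, and 5 in Lgr5- cells (1 in TPM), beside 4.95%. Between the E14.5 libraries none of the 25 was called, where 5.54% of all measured genes were, and the median was 0.23. Mki67, a marker of cycling cells, stood at 30.6 FPKM in Sox9+, 15.3 FPKM in Lgr5+ and 17.0 FPKM in Lgr5- cells. The log2 medians of the 3 D-type cyclins were -0.08 for Lgr5+ (0.07 in TPM) and -0.12 for Lgr5- over Sox9+ cells, and the difference of the lists was not tested.

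**Figure D4:**
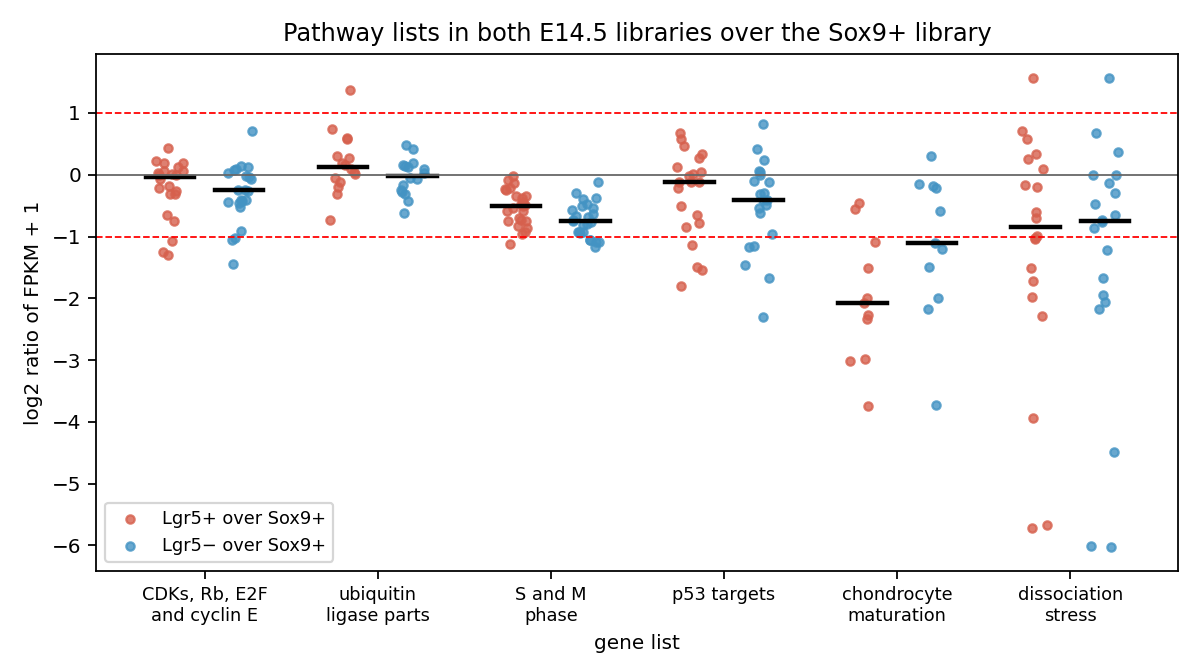
Log2 ratio of FPKM + 1 of each measured gene in 6 lists, for the Lgr5+ (red) and Lgr5- (blue) library over the Sox9+ library, with list medians as black bars and dashed lines at 2-fold. The 25 S and M phase genes lie below 0 for both libraries on the FPKM scale, p53 targets lie on both sides, and the chondrocyte maturation and dissociation stress lists hold the largest negative ratios.

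Other targets of p53 were set beside Cdkn1a. Of 23 listed, 21 were measured, and 4 were 2-fold lower in Lgr5+ than in Sox9+ cells (Pmaip1, Gadd45a, Plk2 and Btg2), none 2-fold higher. In TPM 3 were 2-fold lower. In the Lgr5- library 5 were 2-fold lower (Perp, Pmaip1, Gadd45a, Bbc3 and Plk2). Among all measured genes 3.97% were 2-fold lower in Lgr5+ and 4.95% in Lgr5- than in Sox9+ cells. The medians were -0.12 (0.01 in TPM) and -0.40 on the log2 scale. Pmaip1, which encodes the apoptosis factor Noxa, stood at 11.6 FPKM in Sox9+ cells against 2.64 and 2.98 FPKM in Lgr5+ and Lgr5- cells. Plk2, a kinase gene, stood at 275.5 FPKM against 97.1 and 123.3 FPKM, and the stress gene Gadd45a at 36.5 FPKM against 11.9 and 12.7 FPKM. The members that differed did not include Mdm2, the p53 ligase and target, at 39.2, 36.0 and 26.5 FPKM, and Trp53 itself stood at 144.2, 165.2 and 165.1 FPKM. Between the E14.5 libraries Perp, also an epidermal gene, was the 1 called member of 21 measured, where 5.54% of all measured genes were called. Perp stood at 10.1 FPKM in Lgr5+ and 1.6 FPKM in Lgr5- cells, and the list median was 0.08. Of 9 listed genes of p53 and Polycomb control none was called in any pair on the FPKM scale, with 6 or 7 measured. All measured genes were called at 8.3% for Lgr5+ and 8.03% for Lgr5- over Sox9+ cells, so none among so few does not set this list apart. Its medians were 0.11 for Lgr5+ over Sox9+, -0.01 for Lgr5- over Sox9+ (0.11 in TPM) and 0.01 for Lgr5+ over Lgr5-.

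Genes induced by tissue dissociation and heat were often highest in Sox9+ cells, but this list was chosen after these values were seen. Of 20 listed, 9 were 2-fold lower in Lgr5+ (7 in TPM) and 8 in Lgr5- than in Sox9+ cells. Among all measured genes 3.97% and 4.95% were 2-fold lower. In each comparison 1 listed gene (Socs3) was 2-fold higher, and the medians were -0.84 (-0.69 in TPM) and -0.75 (-0.63 in TPM). Their sum was 14110 FPKM in Sox9+, 7756 FPKM in Lgr5+ and 7336 FPKM in Lgr5- cells, and none was listed at 0. Atf3, a stress-induced transcription factor gene, stood at 183.7, 55.3 and 39.8 FPKM. Between the E14.5 libraries 1 of 20 was called, Dusp1, which encodes a stress-induced phosphatase, where 5.54% of all measured genes were. The median was 0.09. Chondrocyte maturation genes were also lower than in Sox9+ cells, with 9 of 11 measured genes 2-fold lower in Lgr5+ and 6 of 11 in Lgr5- cells and sums of 304, 125 and 235 FPKM in the Sox9+, Lgr5+ and Lgr5- samples. Their medians were -2.07 and -1.11. Between the E14.5 libraries 4 of 10 maturation genes were 2-fold lower in Lgr5+ cells, where 1.89% of all measured genes were. The median of the maturation list there was -0.88. The part of stress, stage or maturation in the Cdkn1a and Cdkn2b values was not tested. Stage, reporter line, sorted population and limb cannot be told apart in the comparisons with the Sox9+ library.

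Genes linked to rest through FoxO factors were mixed. Of 9 listed, 1 was called in each comparison with the Sox9+ library, Klf2, at 501.4 FPKM in Sox9+ cells against 157.0 and 94.9 FPKM in Lgr5+ and Lgr5- cells, and none between the E14.5 libraries. The medians were -0.19, -0.38 and 0.13 for Lgr5+ over Sox9+, Lgr5- over Sox9+ and Lgr5+ over Lgr5-. In the same order 8.3%, 8.03% and 5.54% of all measured genes were called, shares to be set beside both lists of this paragraph. Of 19 other cyclin genes and genes with like names, none was called in the comparisons of the Lgr5+ library, with medians of 0.15 over Lgr5- and -0.02 over Sox9+ (0.13 in TPM). In the Lgr5- library the atypical cyclin gene Ccnjl was 2-fold higher than in Sox9+ cells, at 5.55 against 1.93 FPKM, and Ccno and Cdkn3, which encodes a phosphatase of CDKs and is no member of these inhibitor families, were 2-fold lower, with a median of -0.13. Neither of those lower genes passed 2-fold when scaled by the sum without the most abundant genes.

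The genes nearest in pattern to the 2 called members were found by the distance of centred log2(FPKM + 1) values over the 3 libraries, among genes of at least 10 FPKM in their highest library. For Cdkn1a they were Wee1, a kinase gene whose product restrains Cdk1, at a distance of 0.025 (31.4, 12.3 and 9.67 FPKM in the Sox9+, Lgr5+ and Lgr5- samples), Edil3 at 0.034 and Plekhf2 at 0.035. Within a distance of 0.1 lay 13 of 7021 genes. For Cdkn2b they were Itprip at 0.028 (47.9, 19.5 and 13.7 FPKM), Kcnk1 at 0.049 and Btg3 at 0.058, and 7 of 7022 genes lay within 0.1. The likeness to Cdkn2b was set by the constant added: with 0.1 in place of 1 FPKM, an alternative chosen after the values were seen, Itprip lay at 1.303, Kcnk1 at 1.353 and Btg3 at 1.295, and no gene lay within 0.1. For Cdkn1a, Wee1 was still the nearest at 0.03, with 11 genes within 0.1. With 3 points per gene, such likeness is weak.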

How the data were processed

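RNA was measured in 3 libraries of sorted mouse digit cells. Per the labels' protocols, TrypLE and DNase freed the cells, GFP sorted them, and 10 ng of RNA per library went into SMARTer Ultra Low cDNA synthesis, which amplifies and so adds noise to low genes. Per the submitters' processing notes, reads were handled with HISAT2 and mm10 (GRCm38). For the quantifier, its annotation and multi-mapping reads, details were not given in the sources used here. Values deposited by the authors are FPKM, 1 per gene symbol with 2 decimals. Of the symbols, 25 had been turned into dates and were left out. A search for the step that 1 fragment leaves in low values, over a range of assumed depths, gave best scores of 0.179 to 0.203, where 1 is a perfect step, so no depth was derived.

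Differences were log2 ratios of FPKM + 1 (Python 3.11.15, pandas 2.3.3), with a minimum of 1 FPKM and a 2-fold line. Alternatives were other constants, 5 other scalings, other minimums and a 1.5-fold line. The code that makes the calls was tested on simulated data with planted folds, which gives no error rate for these libraries. Members and gene lists were chosen with earlier results of these data known, and the dissociation stress list after these values were seen. Named genes are the members, up to 4 called genes per list, and Cdk4, Cdk6, Rb1, Skp2, Trp53, Mdm2, Mki67 and Kcnq1ot1, the 3 genes nearest in pattern to each member that spans 2-fold, and genes that overlap a member or mark other cells. Igf2, Bmi1, Ezh2, Atf3 and Rn45s, and Plk2 in Lgr5- cells, were chosen after their values were seen. Gene positions and shared 50-base stretches come from GENCODE M21 (GRCm38), promoter windows from RefSeq GRCm38.p6.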

Additional observations from a re-analysis of the deposited data

How the results depend on the processing

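Over 7 alternatives (constants of 0.1 and 5, and 5 other scalings), 207 of 210 member values kept their call or lack of one, 3 lost their call and none of the called ratios changed sign. Most of the 210 belong to ratios that were not called to begin with. Those of Cdkn2a, at 0 FPKM in every library, could not change. The 3 that lost their call were the Cdkn2b ratios to the Sox9+ library and the Lgr5+ ratio of Cdkn1a, with a constant of 5. All 3 thus came from the 2 called members. The ratio of Cdkn2b for Lgr5+ over Lgr5- passed 2-fold with a constant of 0.1 (1.56 against 0.47). It was not called there because both values were under 1 FPKM. With the constant of 5, no member (0) was called for Lgr5+ over Sox9+ and 1 was for Lgr5- over Sox9+, against 2 in each. With a minimum of 10 FPKM, which leaves Cdkn2b out, 1 was called in each. At 1.5-fold 3 were called for Lgr5+ over Lgr5-, against 0, and under the other 9 alternatives that count stayed at 0.

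Of 30 member ratios, 5 changed sign under another setting, all of them small: Ccnd3 in both Lgr5+ comparisons, Cdkn1b in both comparisons with the Sox9+ library, and Cdkn1c for Lgr5+ over Sox9+. TPM moved the median log2 ratio of all genes by 0.15 for Lgr5+ over Sox9+ and 0.11 for Lgr5- over Sox9+. The share of all genes called moved by over 1.5 times with the constant: for Lgr5+ over Lgr5- it was 9.27% with 0.1 and 2.28% with 5, against 5.54%, for Lgr5+ over Sox9+ 3.09% with 5 against 8.3%, and for Lgr5- over Sox9+ 3.31% against 8.03%. With 0.1, 898 genes were higher and 785 lower for Lgr5+ over Sox9+ (540 and 495 as reported), and 720 and 958 for Lgr5- over Sox9+ (384 and 617). At 1.5-fold the share of genes called was 15.4%, 22.5% and 22.3% in the 3 comparisons in that order. No paired analysis was possible because each population has 1 library. Leaving out a replicate was not possible for the same reason. The unknown depth leaves no counting error for Cdkn2b or other genes near 1 FPKM.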
